A study of Sus scrofa with 80 samples.

Results

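The 89 genes described here were the Wnt, FGF, BMP, TGF-beta, Notch and Hedgehog genes that a custom porcine microarray listed by symbol. They were chosen by name from 23722 measured genes: WNT, FZD, DKK and SFRP genes, FGF and FGFR genes, BMP, GDF, TGFB and BMPR genes, NOTCH, DLL, JAG, HES and HEY genes, and PTCH and GLI genes, each taken wherever the name began that way. A further 16 relatives, among them BMPR2, WNT2 and WNT3A, were listed by transcript accession and were not analysed here. The name rule also caught 7 genes that are no ligand, receptor or target of these pathways in the usual sense: the protease BMP1, the kinase BMP2K, the centrosomal gene FGFR1OP, FGFR1OP2, TGFBRAP1, PTCHD1 and PTCHD2. FGF11, FGF12, FGF13 and FGF14 were classed as intracellular FGF genes, apart from the FGF ligands.

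The samples were bulk tissue RNA of Göttingen minipigs, a small laboratory breed, and the labels name no genetic modification or treatment. The 3 brain tissues (cerebellum, hypothalamus and cortex) and 4 others (bone marrow, spleen, kidney and liver) were taken from males and females at 1 week, 4 weeks, 2 months and 4 months, with 1 sample per tissue, age and sex, which gave 8 samples per tissue. Ovary was sampled in 1 female and testis in 1 male at each of these ages. A 2-year male contributed 1 sample of each tissue other than ovary. The younger samples below are those of 1 and 4 weeks and the older samples those of 2 and 4 months, 4 against 4 in each tissue. For 1 week to 4 months the labels do not say whether tissues of one age and sex came from 1 pig, so p-values measured the spread between these samples.

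These pathways pattern the embryo and remain in use in growing and adult organs. Wnt ligands bind Frizzled receptors on the cell surface, and the secreted DKK and SFRP proteins hold them back. FGF ligands signal through FGFR tyrosine kinases, BMP, GDF and TGF-beta ligands through serine/threonine kinase receptors, and the Notch receptors are switched on by DLL and JAG ligands on a neighbouring cell, which raises HES and HEY transcription factors. Hedgehog ligands act through PTCH1, and GLI factors carry the signal into the nucleus.

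Values are log2 normalized intensities, means over the probes of a gene. They rank samples for 1 gene and do not rank genes against each other, since probes differ in brightness. A detection limit was set at the 95th percentile of the negative control spots of each array and lay between 2.29 and 3.39, with a median of 2.89. Of the 89 members, 39 were above the limit in all 56 samples of the 7 tissues, 18 in fewer than 28 of the 56, and 2, HES3 and WNT2B, in none. Between 48.8% and 65.8% of gene spots per array were well above background. Of 88 members with at least 2 probes, 38 had probes that all correlated at 0.9 or more across the arrays and 25 had a pair under 0.5. Each of the other labelled tissues held most of its measured defining markers at their highest mean of all 9 tissues, from 5 of 8 in ovary to 10 of 10 in liver. The samples labelled hypothalamus did not: of 7 measured hypothalamic markers AVP alone was highest there, with a mean of 2.33 beside at most 2.11 elsewhere. AVP, PMCH and SIM1 ran from 1.78 to 3.28, from 2.00 to 2.81 and from 2.19 to 2.82. Each of them was above the limit in 1 of the 8 samples. OXT, HCRT, OTP and GAL were above the limit in all 8 samples, and each had a higher mean in another tissue. The 2-year arrays lay on 2 slides of their own and the other arrays on 9, so that 2 years and slide cannot be told apart, and the 2-year male was also raised at another site with other food.

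In the comparison of tissues, which asked where each pathway gene was found at its highest level, 42 of the 89 members were called higher in at least 1 of the 7 tissues (limma adjusted p under the threshold of 0.05 and at least 2-fold above the mean of the other 6). Over all genes 41.7% were called in at least 1 tissue. There were 79 calls, with adjusted p of at most 1.16e-04 (limma, 56 samples). In cerebellum 17 members were called, beside 9.75% of all genes. In hypothalamus 17 were called, beside 9.82% of all genes, and in cortex 15, beside 10.6%. In liver 8 were called (9.83% of all genes), in kidney 5 (8.89%), in spleen 9 (8.8%) and in bone marrow 8 (10.4%). In all, 22 members were called in at least 1 of the 3 brain tissues, beside 16.7% of all genes, and 12 of them in all 3. These 12 were the Wnt ligand WNT4, the receptors FZD3 and FZD9, the antagonists DKK3 and SFRP2, FGF1 and FGF12, the BMP relatives GDF7 and GDF10, the Notch target HEY1, and PTCHD1 and PTCHD2.

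**Figure D1:**
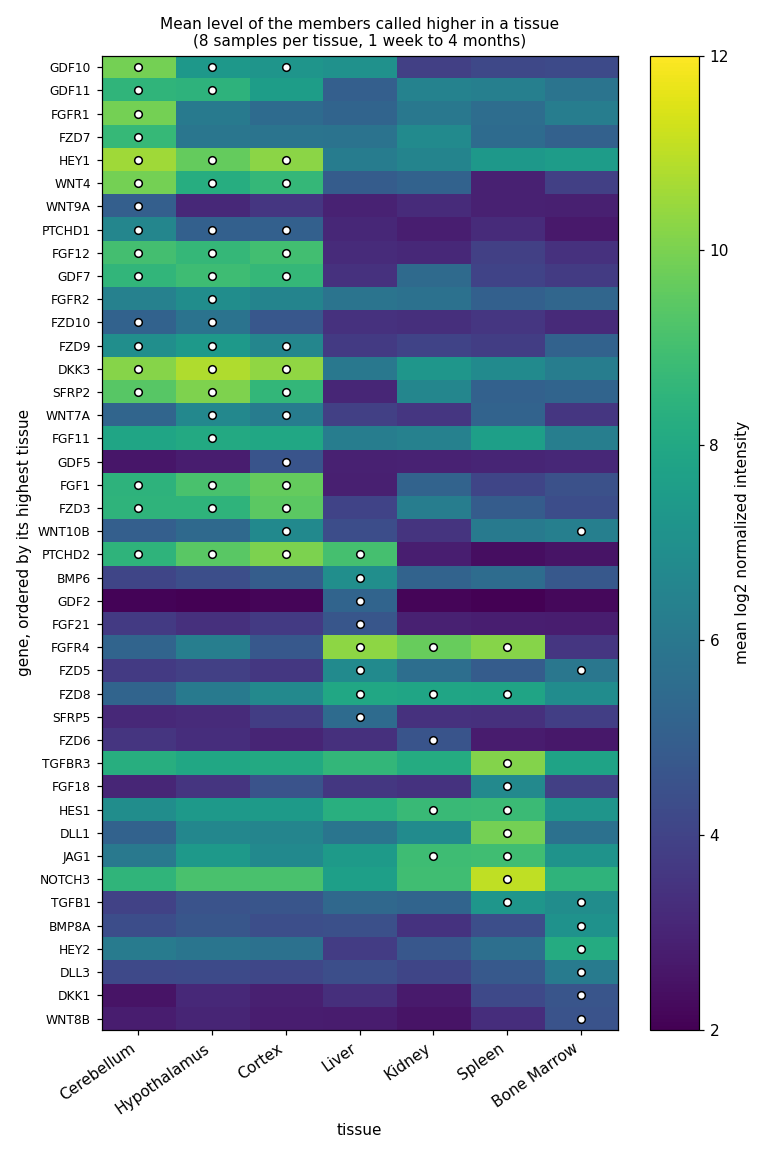
Mean log2 normalized intensity (colour) of the 42 members called higher in at least 1 tissue, over the 8 samples of each tissue at 1 week to 4 months; white points mark the calls. The upper rows hold the genes highest in a brain tissue, among them those called in all 3 brain tissues, and FGFR4 stands out in liver, kidney and spleen.

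Among the 13 Wnt ligands, 5 were called. WNT4, which acts in kidney and gonad development, was highest in cerebellum, where the 8 samples ranged from 9.39 over a median of 9.87 to 10.43. Its cortex samples ranged from 8.44 to 9.04 and its hypothalamus samples from 7.36 to 9.62. The highest sample outside the cerebellum, at 9.62, lay within the cerebellar range. The difference of cerebellum from the other 6 tissues was 4.26 on the log2 scale (SE 0.33, limma adjusted p = 5.48e-17).

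WNT9A was well above background in all 8 cerebellar samples (4.62 to 5.32) and in none of the other 48, so the gene was at least 3.36-fold higher in cerebellum (limma adjusted p = 1.35e-24). WNT7A, a ligand of the developing nervous system, was called in hypothalamus (5.54 to 7.67) and cortex (5.69 to 6.70). WNT10B was called in cortex (6.25 to 7.01) and in bone marrow (5.41 to 7.09), and the ranges overlapped. WNT8B was called in bone marrow alone, where its samples ran from 3.14 to 5.98 beside a highest value of 4.72 elsewhere.

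All 7 Frizzled receptors were called in some tissue. FZD7 separated the cerebellum, with samples from 8.28 to 9.08 and none above 7.38 in the other tissues. FZD3, needed for axon guidance, was highest in cortex: its lowest cortical sample, 9.26, exceeded the highest sample of any other tissue, 9.02, and the difference was 3.38 (SE 0.19, limma adjusted p = 5.09e-23). FZD9 was highest in hypothalamus, with a median of 7.37 against 6.94 in cerebellum and 6.56 in cortex, ranges that overlapped.

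Other Frizzled genes were called in organs outside the brain. FZD5 was called in liver (median 6.84, range 5.91 to 7.40) and bone marrow (median 6.00, range 5.33 to 6.52). FZD6 was well above background in the 8 kidney samples, from 4.37 to 4.79, and in none of the other 48, at least 2.45-fold higher (limma adjusted p = 1.36e-18). FZD8 was called in liver, kidney and spleen, where its medians of 7.93, 7.97 and 7.81 were close together and the ranges overlapped.

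Of the 6 Wnt antagonists, 4 were called. SFRP2 was highest in hypothalamus, from 8.63 over a median of 10.29 to 11.23, and its difference from the other tissues was 3.75 (SE 0.46, limma adjusted p = 3.45e-10). SFRP2 was also one of the members that varied most within a tissue, as the age comparisons show. DKK3, a DKK relative found in many tissues, had medians of 10.81 in hypothalamus, 10.32 in cortex and 10.14 in cerebellum. SFRP5 was called in liver (5.05 to 5.89), where 1 bone marrow sample, at 5.61, reached the same range. DKK1, the classical inhibitor of the Wnt co-receptor, was called in bone marrow with samples from 2.58 to 5.93, of which 4 of 8 were well above background.

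FGF1 and FGF12 were the FGF genes most tied to the brain. FGF1, a secreted growth factor of neurons among other cells, had medians of 9.62 in cortex, 9.19 in hypothalamus and 8.61 in cerebellum, and the cortical difference was 3.93 (SE 0.24, limma adjusted p = 2.06e-21). FGF12, which stays inside the cell and binds sodium channels, had medians of 9.05, 9.02 and 8.64 in cerebellum, cortex and hypothalamus, and its differences there ran from 3.36 to 3.81. FGF18 was the FGF gene called in spleen: its 8 samples ran from 5.66 to 7.77, the highest sample elsewhere was 5.85, and the difference was 3.02 (SE 0.23, limma adjusted p = 2.25e-17). FGF21, a hormone of the liver, was called in liver, where samples reached 6.52 around a median of 4.43.

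The 3 FGF receptors on the array differed in place. FGFR1 separated the cerebellum, with samples from 9.56 to 10.21, with no sample of another tissue above 7.36, a difference of 4.13 (SE 0.16, limma adjusted p = 1.58e-29). FGFR4, a receptor of endocrine FGFs in liver, was called in liver, spleen and kidney, with medians of 10.32, 10.62 and 9.73. The spleen range, 8.52 to 11.14, enclosed the liver range, 10.02 to 10.54. FGFR2 had a small lead in hypothalamus, where its lowest sample was 6.69 and the highest elsewhere 6.64. FGFR2 rested on 10 probes, 8 of them of a class that may bind related transcripts, whose lowest pairwise correlation was -0.04.

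Of the 16 BMP and GDF ligands, 7 were called. GDF10, a BMP relative of cerebellar glia, ran from 9.46 to 10.42 in cerebellum with no other sample above 8.23, a difference of 4.26 (SE 0.21, limma adjusted p = 6.42e-25). GDF7 was at similar levels in the 3 brain tissues (medians 8.89 in hypothalamus, 8.64 in cortex and 8.63 in cerebellum), and was measured only with probes that may bind related transcripts. GDF2, the circulating ligand also called BMP9 and made by the liver, ran from 4.61 to 5.74 in liver, and no sample of another tissue exceeded 3.17 (difference 3.11, SE 0.14, limma adjusted p = 2.81e-27). BMP6, the ligand that sets hepcidin and so iron uptake, was called in liver as well, from 5.78 to 8.34. BMP8A was called in bone marrow, with samples from 5.35 to 8.25 and a highest value elsewhere of 7.18, in spleen.

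TGFB1, the immune-regulating TGF-beta, was called in spleen (6.13 to 7.76) and bone marrow (6.64 to 7.14), and was also measured only with probes that may bind related transcripts. The co-receptor TGFBR3 was called in spleen, where its samples ran from 9.05 to 10.76 beside a highest value of 9.12 elsewhere. No call was made for TGFB2, TGFB3, TGFBR1, TGFBR2 or BMPR1A. The 2 BMPR1A probes differed from each other widely, one with a mean of 2.57 and the other far brighter, so that its gene value was an average of a bright and a dim probe.

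In the Notch family DLL1 and NOTCH3 separated the spleen from every other tissue. DLL1, the ligand that marginal zone B cells depend on, ran from 8.53 over a median of 10.18 to 10.64 in spleen, against at most 7.10 elsewhere, and its difference was 3.78 (SE 0.16, limma adjusted p = 4.46e-28). NOTCH3, a receptor of vascular smooth muscle, ran from 9.82 to 11.66 there against at most 9.57 elsewhere, a difference of 2.40 (SE 0.18, limma adjusted p = 1.01e-17). The 1-week spleens held the lowest values of both genes. JAG1 and HES1 were called in spleen and kidney, with JAG1 medians of 9.13 and 8.85 and HES1 medians of 9.04 and 8.78.

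HEY1 was the brain member of the target genes, with medians of 10.57 in cerebellum, 10.28 in cortex and 9.64 in hypothalamus. HEY2 and the ligand DLL3 were called in bone marrow. HEY2 ran there from 7.45 to 8.66, a difference of 2.83 (SE 0.28, limma adjusted p = 3.20e-13), and 1 spleen sample of 1 week, at 8.26, entered that range. NOTCH1 and NOTCH4 passed the detection limit in 5 and 9 of the 56 samples. The 2 probes of each were dim and correlated at 0.12 for NOTCH1 and 0.15 for NOTCH4, so these counts do not show that the genes are absent. No tissue was called for the Hedgehog receptor PTCH1 or for GLI2 and GLI4, and the mean of PTCH1 differed by 0.41 between its highest and lowest tissue.

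PTCHD2, caught by its name, was called in cortex (9.76 to 10.32), hypothalamus (8.78 to 9.89), cerebellum (7.62 to 9.26) and liver. Its 4 female livers held 8.77, 9.90, 10.08 and 10.70 from 1 week to 4 months, and its 4 male livers 9.36, 7.85, 7.87 and 8.02. From 4 weeks on every female liver lay above every male one. This split was noticed in the values and was not tested.

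The comparison of younger with older samples asked which members moved as the pigs grew from 1 week to 4 months. It gave 20 calls over 16 members and 6 tissues, 17 of them lower and 3 higher in the older samples. No such total is given for all genes, whose shares follow tissue by tissue, so the totals are not a result about the members alone. In bulk tissue, fewer cells of a type and less RNA per cell cannot be told apart. In kidney 7 members were lower in the older samples, beside 4.74% of all genes, and 0 higher, beside 3.72%. The median member differed by -0.10 on the log2 scale and the median gene by 0.02. In cerebellum 3 were lower (1.34% of all genes) and 0 higher (0.957%), with 22 of 89 members at an unadjusted limma p under 0.05, or 24.7% beside 20.1% of all genes. In cortex 3 were lower (0.809% of all genes) and 1 higher (0.961%), in liver 2 lower (1.13%) and 0 higher (0.683%), in spleen 2 lower (1.56%) and 0 higher (1.55%), and in bone marrow 0 lower (0.097%) and 2 higher (0.637%). In hypothalamus 0 members passed in either direction (limma), as did 0% of all genes, while 14 members had an unadjusted p under 0.05, or 15.7% beside 9.54% of all genes.

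**Figure D2:**
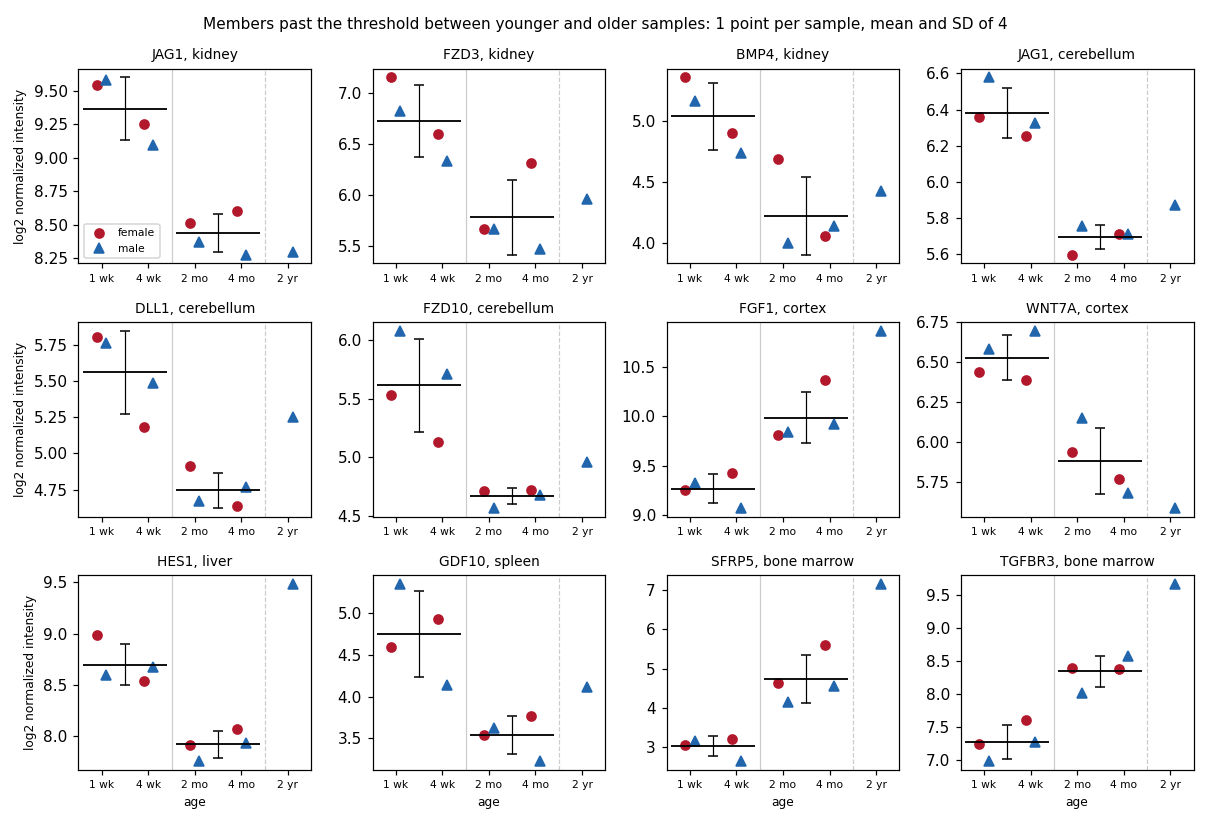
Log2 normalized intensity by age for 12 calls, 1 point per sample (circles female, triangles male); horizontal lines and bars give the mean and SD of the 4 younger and the 4 older samples, and the 2-year sample, which entered no test, is right of the dashed line. In each panel the younger and older samples do not overlap.

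In kidney, JAG1, the Notch ligand whose loss causes Alagille syndrome, had the smallest adjusted p of the 7. Its younger kidneys held 9.54 and 9.58 at 1 week and 9.26 and 9.09 at 4 weeks (female then male, as in all such pairs below), and its older kidneys 8.51, 8.38, 8.60 and 8.28. No older sample reached a younger one, and the difference was -0.93 (SE 0.15, limma adjusted p = 0.0101). The Notch target HEY1 fell by 0.75 (SE 0.20, adjusted p = 0.0477), from 7.32, 7.15, 6.59 and 6.43 to between 6.05 and 6.20.

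Of the 26 Wnt ligands, Frizzled receptors and Wnt antagonists, FZD3 and DKK2 fell in kidney and the other 24 did not pass. FZD3 held 7.16, 6.83, 6.60 and 6.33 in the younger kidneys and 5.67, 5.67, 6.31 and 5.47 in the older ones, a difference of -0.95 (SE 0.22, limma adjusted p = 0.0326). The female of 4 months, at 6.31, was just under the lowest younger value. The antagonist DKK2 went from 4.14, 4.43, 4.04 and 3.48 to between 3.14 and 3.41, a difference of -0.78 (SE 0.19, adjusted p = 0.0368). Its probes correlated at 0.49 and averaged 2.59 and 4.54.

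BMP4, a ligand of the kidney mesenchyme, held 5.35, 5.16, 4.90 and 4.74 and then 4.69, 4.00, 4.06 and 4.14, a difference of -0.82 (SE 0.19, limma adjusted p = 0.0337). BMP8A, between 3.66 and 4.15 and then between 2.87 and 3.52, was not well above background in any of these kidneys, so its call (adjusted p = 0.0243) carries no fold. FGFR1, the seventh and smallest of the calls, fell by 0.56 (SE 0.15, adjusted p = 0.0448). JAG1 alone of the first 6 kept its call with each of the 8 samples left out (adjusted p up to 0.0418), and the other 5 lost it in 5 or 6 of 8 cases, with adjusted p up to 0.134 for HEY1. With slide as a covariate in a fit over all 56 samples, JAG1 stayed called (-0.86, adjusted p = 0.0429), while FZD3 and HEY1 came to adjusted p = 0.0678 and 0.0730, DKK2 to 0.0645, BMP4 to 0.132 and BMP8A to 0.587. With sex as a block HEY1 was not called (adjusted p = 0.0638). The fits with slide, here and in the tissues below, also used a common spread over all 56 samples instead of that of the tissue. Their adjusted p therefore cannot be read as the effect of slide alone. Slides held too few samples of a tissue to compare within a slide. Of the 6 measured stromal markers 3 fell in kidney as well, their summed linear intensity running from 5765 to 21338 in the younger and from 2773 to 4367 in the older samples. Of 5 markers of dividing cells 2 fell, with sums from 652 to 1543 and from 291 to 614. Of 3 fat markers 1 fell, with sums from 854 to 2990 and from 312 to 551, but their median difference was 0.15. Of 9 spleen markers 3 rose in kidney, with sums from 2172 to 2716 and from 3159 to 5644. The part of these cells in the result was not tested.

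In cerebellum, DLL1, JAG1 and FZD10 fell. JAG1 held 6.36, 6.58, 6.25 and 6.33 and then 5.60, 5.75, 5.71 and 5.71, a difference of -0.69 (SE 0.11, limma adjusted p = 0.0222). DLL1 held 5.80, 5.76, 5.18 and 5.48 and then 4.91, 4.67, 4.64 and 4.76, a difference of -0.81 (SE 0.15, adjusted p = 0.0311). FZD10 held 5.53, 6.08, 5.13 and 5.71 and then between 4.57 and 4.72, a difference of -0.94 (SE 0.18, adjusted p = 0.0323). The older cerebella were close together for all 3 genes, and none reached a younger one. These calls were lost in 4 (JAG1), 5 (DLL1) and 6 (FZD10) of 8 cases when 1 sample was left out, with adjusted p up to 0.114. With slide as a covariate none of the 3 was called, at 0.354, 0.105 and 0.0505. Summed markers of astrocytes and oligodendrocytes ran from 32044 to 41001 in the younger cerebella and from 16997 to 27401 in the older ones (1 of 4 measured markers fell), and those of stroma from 1040 to 2030 and from 818 to 956 (2 of 6 fell). Smooth muscle markers summed to between 872 and 1040 and then to between 559 and 748 (1 of 3 fell). Their part in the result was not tested.

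In cortex, FZD10 and WNT7A fell together with HES1, and FGF1 rose. FZD10 held 5.52, 5.38, 4.64 and 5.37 and then 4.24, 3.91, 4.34 and 4.35, a difference of -1.01 (SE 0.19, limma adjusted p = 0.0383). WNT7A went from between 6.39 and 6.70 to between 5.69 and 6.15 (difference -0.64, SE 0.13, adjusted p = 0.0408), and HES1 from between 7.57 and 7.73 to between 7.05 and 7.30 (difference -0.48, SE 0.09, adjusted p = 0.0412). FGF1 held 9.25, 9.32, 9.43 and 9.08 and then 9.81, 9.84, 10.37 and 9.92, higher by 0.72 (SE 0.14, adjusted p = 0.0408). The 2-year cortex held more FGF1 still, 10.86. With 1 sample left out FZD10 and FGF1 were lost in 7 of 8 cases and WNT7A and HES1 in 8 of 8, with adjusted p up to 0.119. With slide as a covariate, in the fit with a common spread, their adjusted p ran from 0.496 to 0.959, with the same directions. With sex as a block none of the 4 was called (adjusted p from 0.0551 to 0.0673). Of the 6 stromal markers 1 fell in cortex, and of the 5 of dividing cells 1, and their part in the result was not tested.

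FGF1 had differences of like size in other tissues that did not pass the threshold. Its difference was 0.85 in cerebellum (limma adjusted p = 0.0841), 0.83 in hypothalamus (adjusted p = 0.302) and 0.95 in kidney (adjusted p = 0.0501). In hypothalamus the largest member difference was that of SFRP2, at -1.78 (SE 0.27, adjusted p = 0.122). Its younger samples held 11.01, 10.74, 10.88 and 11.23 and its older ones 9.60, 9.84, 8.67 and 8.63, with no overlap.

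In liver, HES1 fell from 8.98, 8.59, 8.54 and 8.68 to 7.91, 7.76, 8.07 and 7.93, a difference of -0.78 (SE 0.15, limma adjusted p = 0.0354). The 2-year liver, at 9.49, lay above all 8. BMP8A held 5.35, 5.22, 4.64 and 4.80 in the younger livers and 4.11, 3.75, 3.56 and 4.15 in the older ones. It was not well above background in any older liver and so was at least 2.12-fold lower (adjusted p = 0.0354). BMP8A lost its call in 5 and HES1 in 7 of 8 cases with 1 sample left out, with adjusted p up to 0.116, and both were called with slide as a covariate (0.0286 and 0.0208). With sex as a block neither was (0.0518 and 0.0505). Summed stromal markers ran from 5987 to 9297 in the younger and from 2150 to 5114 in the older livers (2 of 6 fell). Markers of dividing cells summed to between 664 and 1479 and then to between 228 and 590 (0 of 5 passed, median difference -1.32), and erythroid markers had a median difference of -1.45 (0 of 8 passed). The part of these cells in the result was not tested. In liver JAG1 differed by -0.74 (adjusted p = 0.0597) and HEY1 by -0.77 (adjusted p = 0.0714), with no overlap of the groups.

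In spleen, SFRP2 showed the largest age difference of any member past the threshold in a tissue. It held 5.42, 7.51, 7.62 and 6.10 in the younger spleens and 3.97, 2.93, 3.58 and 3.86 in the older ones. No older spleen was well above background, and the gene was at least 7.89-fold lower there (limma adjusted p = 0.0187). GDF10 held 4.59, 5.36, 4.94 and 4.14 and then between 3.23 and 3.77, likewise not well above background, at least 2.32-fold lower (adjusted p = 0.0421). For GDF10 this bound equals the measured fold.

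The 1-week spleens stood apart from the rest. Their erythroid markers averaged 10.77 and 10.88, against 7.89 and 8.59 at 4 weeks and between 6.73 and 7.22 in the older spleens, and 2 of the 8 erythroid markers fell with age. HEY2 and BMP8A, both called in bone marrow, followed the same order without passing the age test: HEY2 held 7.40 and 8.26 at 1 week, 5.08 and 5.98 at 4 weeks and between 4.42 and 4.97 later (adjusted p = 0.102), and BMP8A 7.18 and 5.85, then 3.98 and 4.61, then between 3.15 and 3.66 (adjusted p = 0.106). Without the 1-week spleens SFRP2 was still called (limma adjusted p = 0.0110), and GDF10 was no longer called (adjusted p = 0.0558). With 1 sample left out, SFRP2 lost its call in 5 and GDF10 in 7 of 8 cases, with adjusted p up to 0.114, and with slide as a covariate both were called (0.00657 and 0.0179). With sex as a block SFRP2 was called (0.0423) and GDF10 was not (0.0779). Of the 6 stromal markers 2 fell, with summed intensities from 14280 to 22726 in the younger and from 6132 to 9766 in the older spleens. Of 3 fat markers 1 fell (sums from 272 to 2409 and from 108 to 184), and of 9 spleen markers 2 rose (sums from 5331 to 13020 and from 15616 to 18175). The part of these cells in the results was not tested.

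In bone marrow, SFRP5 and TGFBR3 rose. TGFBR3, which presents TGF-beta to its signalling receptors, held 7.23, 6.98, 7.60 and 7.26 and then 8.39, 8.01, 8.38 and 8.58, higher by 1.07 (SE 0.18, limma adjusted p = 0.0347). SFRP5, a Wnt antagonist made by fat cells among others, held 3.05, 3.16, 3.21 and 2.64, none well above background, and then 4.63, 4.14, 5.61 and 4.56, at least 2.89-fold higher (adjusted p = 0.0349). The 2-year marrow lay above both groups, at 9.66 for TGFBR3 and 7.17 for SFRP5. Of the 3 measured fat markers 2 rose in bone marrow, their summed intensity running from 1261 to 3032 in the younger and from 3825 to 28827 in the older samples, and their part in the result was not tested. Each call was lost in 6 of 8 cases with 1 sample left out, with adjusted p up to 0.121, and each was called with slide as a covariate (1.58e-04 for SFRP5 and 0.0107 for TGFBR3).

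Other genes of these pathways, taken from a list of 138 co-receptors, transducers, modulators and targets, were counted next, and 92 of them were measured. In kidney, the tissue with the most calls over all genes as well, 8 were lower and 1 higher in the older samples, or 8.70% and 1.09% of the 92 beside 4.74% and 3.72% of all genes. In each other tissue at most 3 of the 92 passed in a direction, and the shares of all genes given above apply. The BMP antagonist CHRDL1 fell by 1.53 (SE 0.20, limma adjusted p = 0.00543) and LGR4, a Wnt pathway receptor that is no Frizzled, by 1.27 (adjusted p = 0.0461). The Hedgehog transducer SMO fell by 1.16 (adjusted p = 0.0184) and the activin subunit INHBB by 1.11 (adjusted p = 0.0164). In liver INHBB fell by 2.84 (adjusted p = 0.0256) and SMO by 1.19 (adjusted p = 0.0476). In cerebellum the BMP target ID2 fell by 0.98 (adjusted p = 0.0493) and CHRDL1 by 0.59 (adjusted p = 0.0351), and in spleen the FGF-responsive factor ETV4 fell by 1.68 (adjusted p = 0.00891). In bone marrow the activin antagonist FST rose by 2.24 (adjusted p = 0.0291), LTBP2 by 1.38 (adjusted p = 0.0405) and the co-receptor KLB, not well above background, passed too, while the Notch ligand DNER fell by 1.15 (adjusted p = 0.0419). In cortex LTBP3 rose by 0.58 (adjusted p = 0.0457), and in hypothalamus none passed.

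Averaged over the 7 tissues for each age and sex, 7 members were lower in the older set, beside 6.51% of all genes, and 3 higher, beside 5.72%. SFRP2 differed most, with means of 7.43 ± 0.63 and 6.29 ± 0.35 (SD, n = 4 each, limma adjusted p = 0.0336), and its difference was below 0 in 7 of 7 tissues. Next came BMP8A (-0.76, SE 0.15, adjusted p = 0.0164), HEY2 (-0.74, SE 0.19, adjusted p = 0.0338) and FZD10 (-0.50, SE 0.09, adjusted p = 0.0135), each lower in 6 of 7 tissues. SFRP5 was higher by 0.44 (SE 0.12, adjusted p = 0.0424), but it was well above background in 13 of the 56 samples, so that this mean rests largely on values at background. FZD10 was well above background in 27 of the 56, BMP8A in 34, SFRP2 in 40 and HEY2 in 48. FZD10 kept its call with each of the 8 means left out, BMP8A in 7 of 8, and SFRP2, HEY2 and SFRP5 lost theirs in 6, 5 and 6 of 8. With sex as a block HEY2 (adjusted p = 0.0519) and SFRP5 (adjusted p = 0.0630) were not called. Without spleen, SFRP2 was no longer called (-0.82, adjusted p = 0.153), while BMP8A, HEY2, FZD10 and SFRP5 were (adjusted p up to 0.0400).

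**Figure D3:**
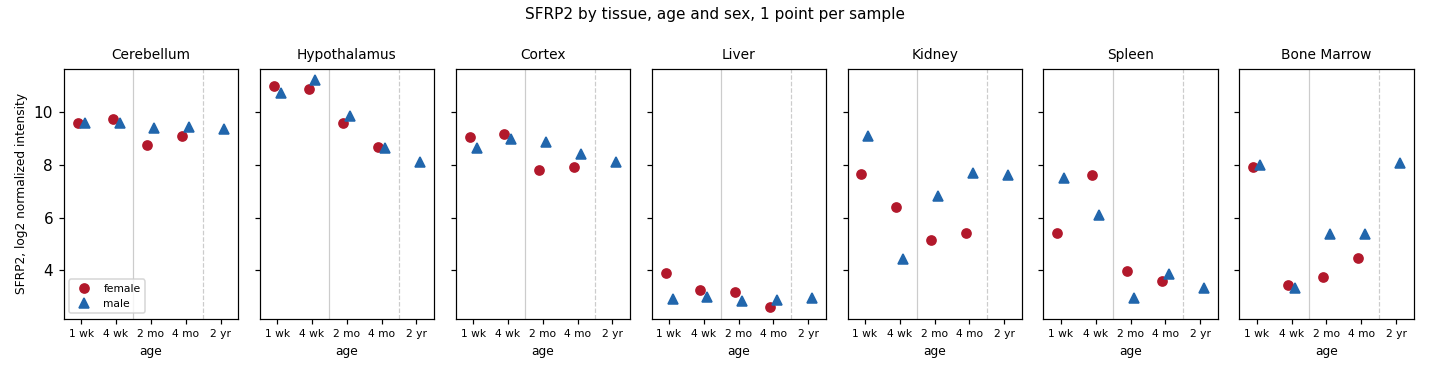
SFRP2 in the 7 tissues by age, 1 point per sample (circles female, triangles male), on a common log2 axis; the 2-year sample is right of the dashed line. Hypothalamus and spleen separate the younger from the older samples, and bone marrow is high at 1 week and again at 2 years.

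SFRP2 was not uniform outside spleen and hypothalamus. In bone marrow it held 7.94 and 7.99 at 1 week, 3.45 and 3.32 at 4 weeks and between 3.73 and 5.38 later, so that the 2 younger ages were far apart. In kidney the males of 1 week, 2 months and 4 months, at 9.10, 6.83 and 7.69, lay above the females, at 7.64, 5.14 and 5.42, but at 4 weeks the female, at 6.39, lay above the male, at 4.42. In liver it stayed between 2.60 and 3.89.

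The age difference itself varied between tissues for 15 of the 89 members (limma F-test of 6 interaction terms over 56 samples), beside 18.6% of all genes. DLL1 had the smallest adjusted p among them, 0.00158: it differed by -0.81 in cerebellum, -0.47 in liver and 0.97 in spleen. HES1 (adjusted p = 0.0122) differed by -0.78 in liver and by 0.85 in spleen, and HEY1 (adjusted p = 0.0210) by -0.75 in kidney and 0.73 in spleen. JAG1 (adjusted p = 0.0254), FZD3 (adjusted p = 0.0148), BMP8A (adjusted p = 0.0476) and SFRP5 (adjusted p = 0.00216) varied as well. With slide as a covariate 6 members passed, and the share of all genes in that fit was not set beside them. In the comparison of males and females, on the same 8 means with age as a block, 0 members passed (limma), beside 0.0211% of all genes, and 4 had an unadjusted p under 0.05, or 4.49% beside 4.13% of all genes.

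In testis, where single samples allow no test, the step from 4 weeks to 2 months was compared. The mean of the 7 measured testis markers was 7.04 and 7.51 at 1 and 4 weeks and 12.07, 12.23 and 11.98 at 2 months, 4 months and 2 years, while that of 6 stromal markers went from 8.64 at 4 weeks to 7.25 at 2 months. Over this step 9 members were at least 2-fold higher, beside 12.9% of all genes, and 19 at least 2-fold lower, beside 17.8%. The median member differed by -0.31 and the median gene by -0.21.

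The 5 largest increases were of genes not well above background at 4 weeks. WNT8B, a Wnt ligand known from the embryonic forebrain, held 2.35 and 2.30 before and then 6.71, 5.04 and 5.80, at least 14.1-fold higher at 2 months than at 4 weeks. GDF5, a ligand of joint formation, went from 4.59 and 3.72 to 7.82, 5.82 and 7.74, at least 17.1-fold over the same step. BMP2K (at least 7.49-fold) and BMP5 (at least 6.82-fold) followed, and BMP5 went on from 6.57 at 2 months to 8.37 at 4 months before a value of 4.34 at 2 years. For GDF5, BMP2K and BMP5, and for FGF1 among the decreases below, the bound equals the measured fold. FGF6, at 2.17 and then 3.97, was not well above background in either sample. WNT8B, GDF5 and BMP2K stayed above their 4-week level by at least 2 on the log2 scale in all 3 later samples.

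**Figure D4:**
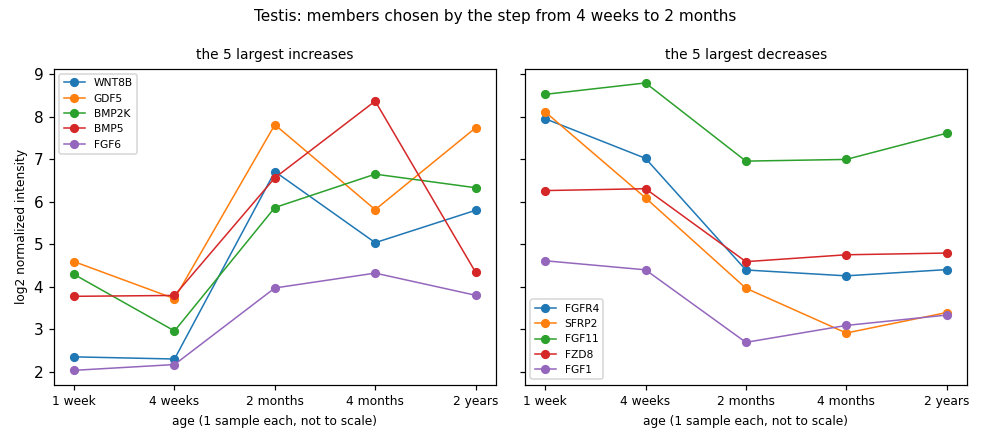
Log2 normalized intensity in testis at 5 ages, 1 sample each, of the members with the 5 largest increases (left) and decreases (right) from 4 weeks to 2 months. WNT8B reads 2.30 at 4 weeks and 6.71 at 2 months, and FGFR4 reads 7.02 and 4.40.

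Of the decreases, FGFR4 went from 7.96 and 7.02 to 4.40, 4.26 and 4.40, 6.18-fold lower over the step. SFRP2 had already come down between the 2 youngest ages, from 8.12 to 6.09, and held 3.97, 2.91 and 3.39 later (4.37-fold over the step). FGF11 went from 8.80 to 6.96 (3.58-fold), FZD8 from 6.31 to 4.59 (3.29-fold) and FGF1 from 4.40 to 2.69 (at least 3.27-fold). The remaining 14 of the 19 decreases were smaller and held HES1, HEY1, JAG1, DLL3, TGFBR2, TGFBR3 and FGFR1. The 4 members with the largest lead of testis at 1 week to 4 months over the highest of the 7 other tissues were FGFR1OP (mean 8.59, range 7.01 to 9.90, other samples up to 7.17), BMP2K (mean 4.94), GDF5 (mean 5.49) and FZD9 (mean 8.16). FGFR1OP and FZD9 held 9.33 and 9.19 at 2 months.

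In ovary the youngest and oldest samples were compared. From 1 week to 4 months 7 members were at least 2-fold higher, beside 5.98% of all genes, and 13 at least 2-fold lower, beside 8.3%. FZD5 was flat at 4.15, 4.18 and 4.16 through 2 months and stood at 6.62 at 4 months, 5.56-fold above 1 week. TGFB1 had the same shape, with 4.55, 4.38, 4.30 and 5.94 (2.62-fold). WNT10B held 4.61, 5.34, 4.38 and 6.14 (2.88-fold), FGF12 held 5.10, 5.48, 6.35 and 6.62 (2.87-fold), and GDF5 held 5.74, 6.04, 5.69 and 7.10 (2.57-fold). For FZD5, TGFB1 and GDF5 the 4-month ovary alone stood apart, while WNT10B also varied among the first 3 ages. A list of adrenal markers, 3 of them measured, averaged 3.28, 3.64 and 3.74 at the first 3 ages and 6.36 at 4 months. The list shares STAR with the ovary markers and averaged 8.08 and 7.90 in testis at 1 and 4 weeks. It therefore does not mark adrenal tissue alone, and its part in the result was not tested.

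**Figure D5:**
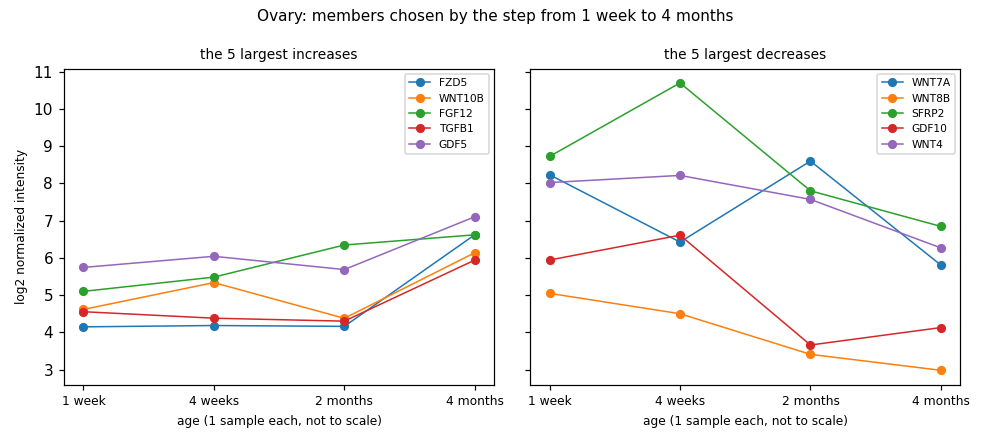
Log2 normalized intensity in ovary at 4 ages, 1 sample each, of the members with the 5 largest increases (left) and decreases (right) from 1 week to 4 months. FZD5 stays near 4.2 until 2 months and reads 6.62 at 4 months; WNT7A reads 8.23, 6.42, 8.60 and 5.81.

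Among the decreases, WNT4, a ligand needed for ovary formation, held 8.02, 8.22, 7.57 and 6.27 (3.37-fold lower). WNT7A held 8.23, 6.42, 8.60 and 5.81, so that its 5.38-fold difference between the ends rested on values that moved up and down between. WNT8B went from 5.05 at 1 week over 3.41 at 2 months to 2.98 (at least 3.85-fold), SFRP2 from 8.73 over 10.70 and 7.80 to 6.85 (3.68-fold), and GDF10 from 5.94 over 6.61 and 3.66 to 4.13 (at least 3.52-fold). For GDF10 the bound equals the measured fold here too.

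The oocyte ligands GDF9 and BMP15 stood highest in ovary relative to the other tissues. BMP15 held 5.02, 4.42, 6.76 and 5.03, was well above background in none of the 56 samples of the 7 tissues, and was at least 3.75-fold above the highest of their means. GDF9 held 11.46, 10.08, 12.10 and 9.71, while its highest value among the 56 was 8.84. Both, which act together in the follicle, were highest in the 2-month ovary. GDF5 (mean 6.14) and GLI2 (mean 3.96) came next.

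The 2-year samples, 1 per tissue, were set beside the range of the 8 younger ones. Outside that range lay 48 of 89 members in bone marrow, beside 53.2% of all genes, and between 14 (kidney) and 33 (cerebellum) in the other tissues, beside 22.2% and 30.2% of all genes there. The 5 widest gaps were in bone marrow: HES1 stood at 11.40 against at most 8.14 before, FGF1 at 8.64 against 5.96, NOTCH3 at 11.62 against 9.05, FGFR1 at 9.56 against 7.36 and JAG1 at 10.06 against 8.17. The widest gap in another tissue was that of DKK1 in liver, which stood at 5.80 against at most 4.11. Age, slide and the other housing of this pig cannot be told apart in these values.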

How the data were processed

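Total RNA of the tissue samples was hybridised to 80 custom 1-colour Agilent porcine arrays. The scanner files deposited by the authors hold the intensity of each spot as read by Agilent Feature Extraction 11.5.1.1, not normalized. The authors also deposited a table of processed log2 values for 49280 probes, whose columns share a median of 4.566. Those were used as an alternative only. Background was corrected here on the raw median intensity with limma 3.58.1 (normexp, offset 0; R 4.3.3), spots marked as outliers were dropped, arrays were quantile normalized, and log2 values were averaged over the spots of a probe and then over the probes of a gene. The 8 technical repeats of the 2-year male kidney were averaged to 1 sample, and the renal pelvis was left out. Between 48.8% and 65.8% of gene spots per array were well above background, and the number of arrays limits the precision.

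Older and younger samples were compared per tissue with limma and Benjamini-Hochberg adjustment over 23722 genes. Tissue levels were compared in a fit over 56 samples. Where a group was not well above background on any of its arrays, the fold is called a bound. It was taken against the measured value or the lowest signal well above background on the array, whichever was higher. Those lowest signals ran from 1.64 to 3.97. Where the measured value was the higher, the bound is the measured fold and no stricter. The genes named were, per comparison, up to 6 members past the age threshold without overlap of the groups, the 4 with the largest tissue difference, the 5 largest over all tissues, the 5 largest in each direction in testis and ovary, the 4 largest leads of testis and of ovary, and up to 4 other pathway genes per tissue; further members were named after their values were seen. Members, gene lists and tests were chosen with earlier results of these data known. Alternatives covered the intensity column, background offset, scaling, probe summary, filter, fold limit, blocks, slide and leaving out single samples. The authors' values, specific probes only, spleen without 1 week and the means without spleen were chosen after seeing the data. The tests were checked on simulated data. Apart from the repeats of the 2-year kidney the labels give no replicate numbers. Age and sex served to match samples for the means over tissues and in the fits with blocks. The main tests of age within a tissue and of tissue levels used no block. Python 3.11.15 with pandas 2.3.3, numpy 2.4.6 and matplotlib 3.10.9 read the files and drew the figures.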

Additional observations from a re-analysis of the deposited data

Results flagged for a closer look

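The age difference varied between the 7 tissues, by an F-test of the difference itself, for 7 of the members named by age (limma adjusted p over all genes, 56 samples). The adjusted p was 0.00158 for DLL1, which was lower in older cerebellum (-0.81) and stood at 0.97 in spleen. It was 0.00216 for SFRP5, at least 2.89-fold higher in older bone marrow and well above background in none of the 8 spleens. It was 0.0122 for HES1 (-0.78 in liver and 0.85 in spleen) and 0.0210 for HEY1 (-0.75 in kidney and 0.73 in spleen). For FZD3 it was 0.0148 (-0.95 in kidney and 0.54 in spleen), for JAG1 0.0254 (-0.93 in kidney and 0.38 in bone marrow) and for BMP8A 0.0476 (at least 2.12-fold lower in older liver, and 0.22 in cortex). None of the spleen values given here, nor that of JAG1 in bone marrow or of BMP8A in cortex, passed the age test of its own tissue. No named member held a sample far from the other 3 of its age group by the gap test for single samples, in 38 groups tested.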

How the results depend on the processing

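No named value changed sign. Of 652 named values under other settings 560 kept direction and call and 70 lost the call. The other 22, all of testis or ovary, fell under the fold limit of the setting. With 1 sample left out, 65 of 192 kept the call and 127 lost it. Counts of members called were less stable. For age, a background offset of 50 gave 1 in cerebellum, 1 in liver, 3 in kidney and 1 in bone marrow; median scaling 2 in cortex, 1 in liver, 4 in kidney, 1 in spleen and 1 in bone marrow; and the authors' values 1 in cerebellum, 4 in liver and 1 in bone marrow. One fit over 56 samples gave 0 in cortex, 14 in spleen and 7 in bone marrow, and with slide 0 in cerebellum, 0 in cortex, 4 in liver, 4 in kidney, 11 in spleen and 6 in bone marrow. With 1 sample left out the counts ran from 0 to 6 in cerebellum (6 without the 4-week female), 0 to 1 in cortex, 0 to 3 in liver, 1 to 16 in kidney (16 without the 4-month female), 0 to 4 in spleen and 0 to 3 in bone marrow, stayed at 0 in hypothalamus, and ran from 2 to 11 over all tissues. For tissue levels, no fold limit gave 28 in cerebellum, 27 in hypothalamus, 33 in cortex, 30 in liver, 15 in kidney, 21 in spleen and 21 in bone marrow, and an offset of 50 gave 11 in hypothalamus, 9 in cortex, 4 in liver, 2 in kidney and 2 in bone marrow. Slide as a covariate left 6 members with an age difference that varied between tissues. In testis an offset of 50 gave 10 and a 4-fold limit 6, and in ovary 8 and 3, with 32 from the processed signal. All of these are counts of members only, and the share of all genes under each setting was not set beside them. The counts therefore do not show whether a move is particular to the members. The cause of these moves was not tested.

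Sex as a replicate block gave 0 members in cortex, 0 in liver, 1 in spleen and 4 over all tissues, and age and sex as a random block 16 over all tissues. These too are counts of members only. Samples of the same age and sex in different tissues deviated together with a mean r of 0.158 (-0.270 to 0.469 over 168 pairs). For the same age and the other sex the mean r was 0.0721 (-0.219 to 0.313 over 168 pairs). The pairing was not taken as given. Precision is limited by 4 samples a side and by signal: 18 members passed the detection limit in fewer than 28 of 56 samples.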

Other observations

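Other members sat at low or even levels. HES3 and WNT2B passed the detection limit in none of the 56 samples, and BMP15 was well above background in none of them. PTCH1, FGFR1OP2, FGF9, FGF20 and BMP1 passed it in all 56, and their tissue means lay within 0.41, 0.47, 0.51, 0.63 and 0.71 of each other on the log2 scale. FGFR1OP2 and BMP1 were measured only with probes that may bind related transcripts, as were FGF10 and FGF13.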
